A study of Mus musculus with 41 samples.

Results

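The RUNX genes *Runx1*, *Runx2* and *Runx3* and their partner gene *Cbfb* were examined for SOX9, MLL3/4 and MYC-tag binding by CUT&RUN (CNR), which sequences the DNA that an antibody-tethered nuclease releases around a chromatin protein. A peak was assigned to a gene when it overlapped the gene body or 50 kb to either side (mm10, GENCODE vM21). By this rule the 4 members, of 21938 protein-coding genes, held 274 of the 281317 peaks of 16 peak lists, each called by the authors on the pooled samples of 1 group.

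The study asked how SOX9 moves epidermal stem cells (EpdSCs) towards a hair follicle fate. All in vivo samples were CD1 males of genotype K14rtTA; TRE-myc-Sox9, in which the *Krt14* promoter drives rtTA in skin epithelium and doxycycline (DOX) then switches on MYC-tagged SOX9, so that D0 cells carried the transgene without DOX. Cells of back skin were sorted as CD49f-high, Ly6A-high and CD34-neg after removal of CD31, CD45, CD117 and CD140a cells, at D0 (P21) and after 1 week (W1, P28), 2 weeks (W2, P35), 6 weeks (W6, P63) and 12 weeks (W12) of DOX. The W12 cells came from skin of newborn pups grafted onto *Nude* hosts, so that W12 differed from the earlier times by the graft as well as by the time, and these cannot be told apart. Cultured EpdSCs carried MYC-tagged wild-type SOX9 (WT-SOX9) without DOX or with DOX at 1 μg/ml, or with DOX a form without the transactivation domain (ΔTA-SOX9, labelled noTA) or without the DNA-binding HMG domain (ΔHMG-SOX9, labelled noHMG). The study's methods describe the cultured forms as lentiviral and selected with puromycin in Krt14-rtTA cells of newborn pups, and the labels write their genotype as for the mice, with noTA or noHMG added for the mutants.

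SOX9 was profiled in vivo at all 5 times and MLL3/4, the enhancer methyltransferases KMT2C and KMT2D, at D0, W1 and W2, and the MYC tag and MLL3/4 in the 4 cultured groups. Each of the 16 groups had 2 samples but 1 pooled list, so no spread between replicates could be had, no test between groups was made, and every interval below covers counting error only. Reads without molecular identifiers are not independent molecules. The 9 other samples of the series (JUN, ARID1a and BRG1) were not analysed here. Lists held 792 (SOX9 D0) to 37072 (MLL3/4 D0) peaks. A maximum signal in the SOX9 and MYC-tag lists is in RPKM, and 1 fragment was worth 30.7 to 76.4 RPKM in vivo and 164 to 248 RPKM in culture, so the same RPKM rests on fewer fragments in culture. For MLL3/4 the study's methods describe RPKM tracks, but every maximum in its pooled lists is a whole number. These values were therefore read as unscaled coverage, with the depth behind them unknown, and coverage values below are not comparable between lists. At D0, MLL3/4 peaks lay within 1 kb of a start of 4 of 5 epidermal genes (*Krt5*, *Krt14*, *Trp63* and *Itga6*, not *Itgb4*) and of 1 of 8 genes of other cells (*Dct*, of melanocytes).

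RUNX proteins are transcription factors that share the Runt domain, and CBFB is the non-DNA-binding subunit that joins any of them and strengthens their hold on DNA. RUNX1 is known in skin for the activation of hair follicle stem cells, RUNX2 is best known from bone formation and RUNX3 from T cells and sensory neurons. Each RUNX gene is transcribed from a distal and a proximal promoter, and the proximal start lies downstream of the first exons of the distal transcripts.

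The SOX9 peaks of W1 to W12 were merged where they overlapped, which gave 28549 sites in the genome. Of these, 33 lay at the members, 16 at *Runx1*, 10 at *Runx2*, 4 at *Runx3* and 3 at *Cbfb*. Sites were numbered along the direction of transcription of each gene, so that Runx1-s1 is the most upstream of *Runx1*. The sequences below are the 101 bases around the centre of the maximum at 8 of these sites, on the + strand of mm10, with the words CATTGT and CTTTGT and their reverse complements in capitals, which are part of the sequence that the HMG domain of SOX proteins recognises. The *Runx1* set shows the site of best rank (Runx1-s3), the site at the proximal start (Runx1-s5), 2 sites of a dense cluster in intron 6 (Runx1-s7 and Runx1-s10) and the site at the downstream end of the window (Runx1-s16).
Runx1-s3, chr16:92739215-92739315, + strand: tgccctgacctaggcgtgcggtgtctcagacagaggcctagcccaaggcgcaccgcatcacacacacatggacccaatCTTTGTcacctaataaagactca
Runx1-s5, chr16:92697386-92697486, + strand: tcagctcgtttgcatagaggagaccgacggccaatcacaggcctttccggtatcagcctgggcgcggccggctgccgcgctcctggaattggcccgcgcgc
Runx1-s7, chr16:92631026-92631126, + strand: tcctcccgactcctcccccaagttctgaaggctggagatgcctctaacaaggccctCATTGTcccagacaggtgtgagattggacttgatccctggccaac
Runx1-s10, chr16:92624136-92624236, + strand: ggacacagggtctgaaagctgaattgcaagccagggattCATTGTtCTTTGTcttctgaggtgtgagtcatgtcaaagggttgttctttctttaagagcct
Runx1-s16, chr16:92551800-92551900, + strand: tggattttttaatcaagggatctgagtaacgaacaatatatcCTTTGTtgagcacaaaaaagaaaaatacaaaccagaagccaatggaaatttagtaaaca

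Runx1-s10 held CATTGT and CTTTGT side by side with 1 base between them, and further along the word TGAGTCA, which AP1 factors bind. Runx1-s3, Runx1-s7 and Runx1-s16 held 1 such 6-letter word each. At Runx1-s5, just upstream of the proximal start, neither word was found. For the other members the sites shown were all bound at the 4 induced times, and Runx2-s4 is not the *Runx2* site of best rank.
Runx2-s4, chr17:44588132-44588232, + strand: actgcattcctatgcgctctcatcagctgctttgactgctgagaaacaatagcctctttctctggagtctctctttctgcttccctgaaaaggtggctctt
Runx3-s2, chr4:135079898-135079998, + strand: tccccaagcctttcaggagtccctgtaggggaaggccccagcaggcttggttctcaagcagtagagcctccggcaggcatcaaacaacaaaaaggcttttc
Cbfb-s2, chr8:105186760-105186860, + strand: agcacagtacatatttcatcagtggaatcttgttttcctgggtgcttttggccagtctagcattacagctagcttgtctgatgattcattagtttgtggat

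Runx2-s4, Runx3-s2 and Cbfb-s2 held neither word in these 101 bases, while 45.5% of the 33 sites and 29.7% of all sites held at least 1. A match is a description of the letters only, and a missing match says nothing about the factor.

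*Runx1*, which encodes a DNA-binding subunit and spans 224684 bp on the − strand (chr16:92601466-92826149), had no SOX9 peak at D0. With DOX it had 12 (W1), 11 (W2), 14 (W6) and 11 (W12), and 0.538%, 1.31%, 0.511% and 0.114% of protein-coding genes, in the same order, held as many. Long windows hold more peaks. Per 100 kb of window, *Runx1* had 3.70 (W1), 3.39 (W2), 4.31 (W6) and 3.39 SOX9 peaks (W12), densities reached by 6.14%, 12.6%, 6.74% and 1.36% of genes, against medians of 0.503, 0.763, 0.797 and 0 over all genes.

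*Runx2*, a DNA-binding subunit spanning 318811 bp on the − strand (chr17:44495987-44814797), had 1 SOX9 peak before DOX, then 4 (W1), 6 (W2), 10 (W6) and 7 (W12). Its counts rose from W1 to W6 while the whole lists grew from 15651 to 20579 peaks, and as many peaks were held by 12.3% of genes at W1, 1.74% at W6 and 0.638% at W12. Per 100 kb, it had 0.955 peaks at W1, 2.39 at W6 and 1.67 at W12, which 33.9%, 20.8% and 10.3% of genes reached. Its window also overlaps *Supt3*, a gene for a subunit of transcriptional coactivator complexes.

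*Runx3*, a DNA-binding subunit spanning 57339 bp on the + strand (chr4:135120652-135177990), had 0, 1, 1, 4 and 2 SOX9 peaks at D0, W1, W2, W6 and W12. Its 4 sites all lay in the flanks, and 0 remained with 10 kb to each side. *Cbfb*, the gene of the shared partner subunit, spanning 47316 bp on the + strand (chr8:105170674-105217989), had 0, 3, 3, 2 and 1. For both, as many peaks were common, being held by 52.4% and 20.4% of genes at W1 and by 18.0% and 39.8% at W12. Within 50 kb also lay *Clic4* for *Runx3* and *B3gnt9*, *Ces4a*, *D230025D16Rik*, *Fbxl8* and *Tradd* for *Cbfb*, so a peak in a flank cannot be assigned to the member alone.

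Counted as genes with at least 1 SOX9 peak, the members were 1 of 4 at D0 and 4 of 4 in each induced list. Over all protein-coding genes the share was 6.04% before DOX and 52.4%, 57.5%, 58.8% and 39.8% after W1, W2, W6 and W12, so a peak alone does not set the members apart.

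**Figure D1:**
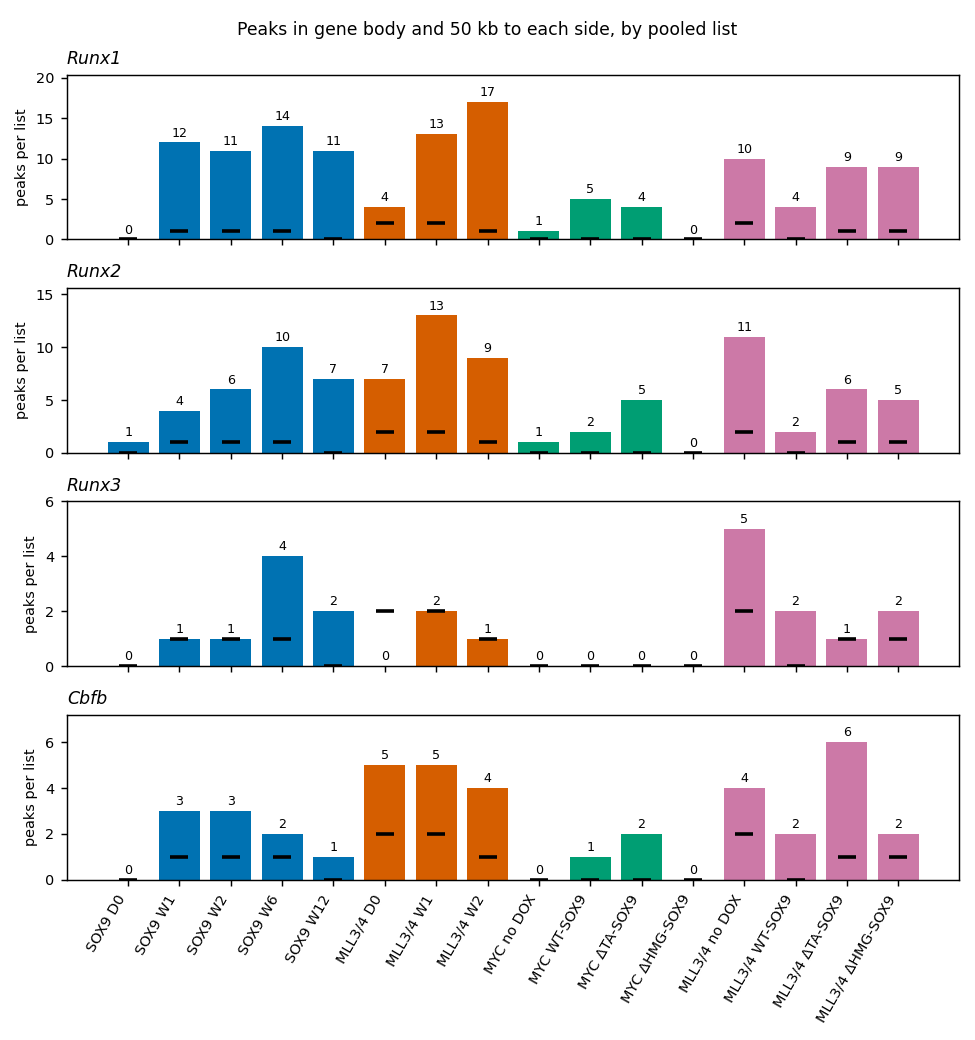
Number of peaks (vertical axis) in the gene body and 50 kb to each side of each member, for each of the 16 pooled lists (horizontal axis), coloured by antibody and system, with the median over 21938 protein-coding genes as a black line. *Runx1* goes from 0 SOX9 peaks at D0 to 12 at W1 and from 4 MLL3/4 peaks at D0 to 17 at W2, and the MYC-tag list of ΔHMG-SOX9 holds 0 peaks at each member.

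The centres of 24 of the 33 sites lay inside a member's gene body, none lay in an exon of the member's main transcript, and 1 lay within 1 kb of a member's start. The median distance to the nearest annotated protein-coding start of the member was 64.4 kb. Runx1-s5 was the site at a start, its centre 0.1 kb upstream of the proximal promoter and inside intron 2 of the distal transcripts. It was among the weaker sites, with maxima of 2535 (W1), 4737 (W2), 3400 (W6) and 1976 RPKM (W12) and ranks of 11035 of 15651 at W1 and 8693 of 9745 at W12. MLL3/4 lay on it at D0, W1 and W2 with maximum coverage of 8, 9 and 8, and in culture without DOX and with ΔHMG-SOX9. The 4 members have 7 groups of starts, and in none of the 16 lists did a peak lie within 1 kb of the distal start of *Runx1* or of either group of starts of *Runx2* and *Runx3*. At the *Cbfb* start, an MLL3/4 peak was listed at D0 alone, at coverage 8 and rank 24708 of 37072.

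At *Runx1*, 13 of the 16 sites were intronic and 3 lay downstream of the gene. Of the intronic sites, 6 (Runx1-s7 to Runx1-s12) fell within 17.3 kb of intron 6 (chr16:92614758-92632033), 195.1 to 210.9 kb from the distal start and towards the end of the gene. Runx1-s10 had 5 other sites within 10 kb, and 2.51% of all sites had as many, the median being 1. Runx1-s12 also overlapped an exon of the antisense gene *Gm26626*, and Runx1-s16 a start of *Gm49722*. The window ended inside Runx1-s16 (chr16:92549997-92552545), so it belongs to *Runx1* by the 50 kb rule only.

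**Figure D2:**
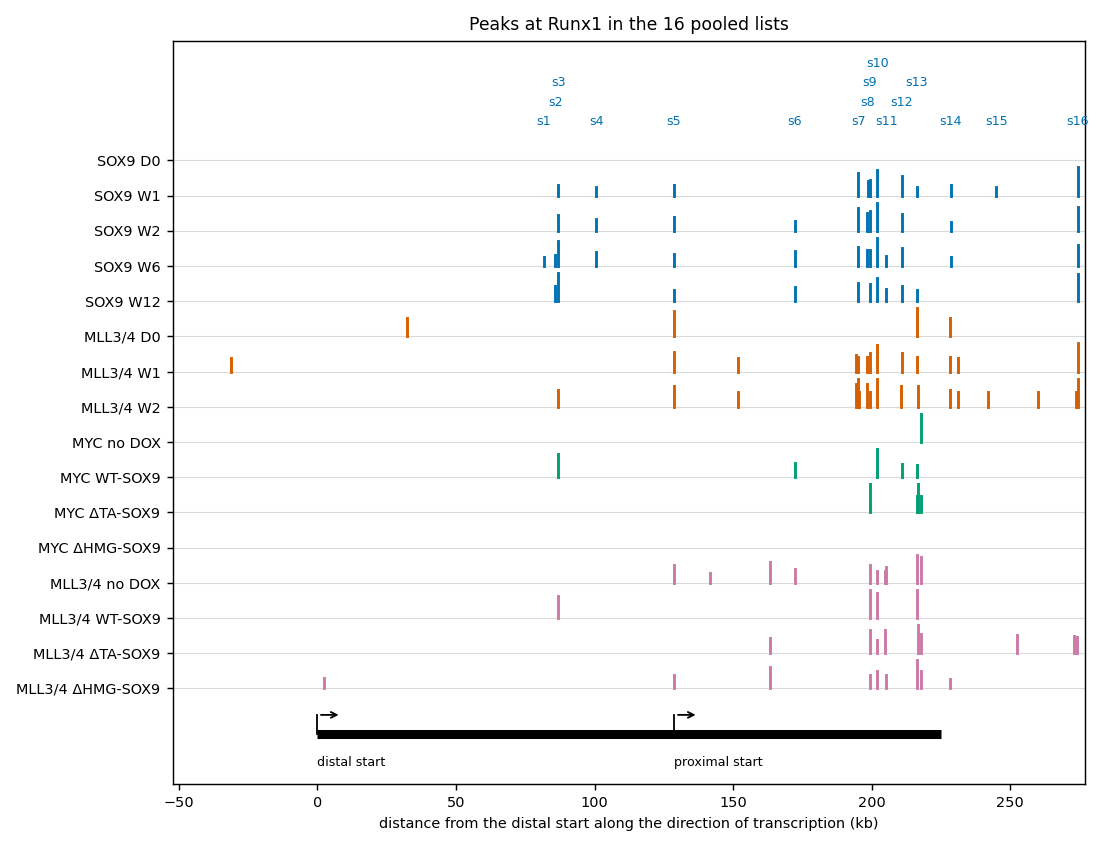
Peaks at *Runx1* in the 16 pooled lists (rows) by distance from the distal start in kb (horizontal axis), with SOX9 sites s1 to s16 above, the gene as a black bar, its 2 starts as arrows and line heights scaled to the highest peak of each row, so that heights are not comparable between rows. The SOX9 lines of W1 to W12 gather 195.1 to 210.9 kb from the distal start, where the MLL3/4 row of D0 is empty and those of W1 and W2 are not.

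Most sites at *Runx1* were seen from W1 on. Of the 16, 12 dated from W1, 1 from W2 and 3 from W6, while 7 were present in all 4 induced lists. At *Runx2*, 4 dated from W1, 2 from W2 and 4 from W6, while 3 were present throughout. At *Runx3*, 1 site dated from W1 and 3 from W6, and at *Cbfb* all 3 from W1. Together, 60.6% of the 33 sites (95% Wilson interval 43.7 to 75.3) dated from W1, 9.09% (3.14 to 23.6) from W2, 30.3% (17.4 to 47.3) from W6 and 0 from W12, which allows up to 10.4%. Over all 28549 sites the shares were 54.4% for W1, 21.1% for W6 and 4.61% for W12, and W2 held 5701 sites, each share within the interval of the members. In all 4 lists were 12 of the 33 member sites (36.4%) against 17.9% of all sites.

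Runx1-s3 (chr16:92738280-92739775), in intron 2 and 86.9 kb from the distal start, was highest at W6. Its maximum was 2766 RPKM at W1 (95% Poisson interval 2040 to 3670, from 48 fragments) and 5577 a week later (4370 to 7010). It reached 10368 at W6 (9120 to 11700, from 247 fragments) and was 7124 at W12 (6050 to 8340). By total signal, which is the basis of all ranks given here, it ranked 10475 of 15651 peaks (W1), 2930 of 18657 (W2), 49 of 20579 (W6) and 80 of 9745 (W12). The maximum at W6 was 3.75 times that at W1 (2.74 to 5.22), a ratio reached by 0.489% of the 5110 sites present in all 4 lists, whose median ratio was 1.15. Runx1-s3 was picked by its best rank, which was its rank at W6, so this share depends in part on that choice. Its peak was 496 and 458 bp wide in the first lists (W1 and W2) and 1496 and 688 bp wide in the later ones (W6 and W12). The neighbouring Runx1-s2 was listed at W6 and W12 and Runx1-s1 at W6 alone.

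The lasting sites of intron 6 were lowest at W12, as was the median over all 5110 lasting sites of the genome. That median was 3800, 4810, 4620 and 2800 RPKM from W1 to W12. Runx1-s7 had 8989 RPKM at W1 (7630 to 10500), a like 9091 at W2 (7530 to 10900), then 7010 (W6, 5990 to 8160) and 3952 (W12, 3160 to 4880), and it ranked 110 of 18657 at W2. Runx1-s10 had 10199, 12147, 11922 and 5699 RPKM at the 4 times, and its W12 to W1 ratio of 0.559 (0.441 to 0.707) lay below the median of 0.747 over all lasting sites. For Runx1-s12 the W12 to W1 ratio was 0.427 (0.314 to 0.576) and for Runx1-s7 0.440 (0.334 to 0.576), and 92.9% and 91.9% of lasting sites had ratios at least as high. For Runx1-s9 it was 0.695 (0.509 to 0.946), an interval that covers the median of 0.747, and 57.8% of lasting sites had ratios at least as high. The interval of Runx1-s3 for the same ratio, 2.58 (1.85 to 3.64), lay wholly above those of the other 6 lasting *Runx1* sites, whose ratios were 0.427 to 0.779. Runx1-s16, downstream of the gene, was the strongest site of the locus at W1 by rank (50 of 15651) and had 11698, 9932, 8228 and 6848 RPKM from W1 to W12.

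At *Runx2*, Runx2-s6 (chr17:44546866-44548860) had the highest maximum of the 4 loci at each time and was the only member site with SOX9 at D0. Before DOX it had 5472 RPKM (4700 to 6340). With DOX it had 17979 RPKM after 1 week (16000 to 20100), 26052 after 2 (23400 to 29000), 16539 after 6 (14900 to 18300) and 16315 after 12 (14700 to 18100). It ranked 57 of 792 peaks at D0, and 14 of 15651, 15 of 18657, 51 of 20579 and 39 of 9745 in the induced lists. From D0 to W1 its maximum grew 3.29-fold (2.72 to 3.97), and 10.5% of the 722 D0 peaks that had a W1 peak grew as much, the median being 1.75-fold. It lay 266.6 kb from the distal start past the end of the main protein-coding transcript and inside the gene body only through a transcript annotated as subject to nonsense-mediated decay, as did the other 5 sites from Runx2-s4 to Runx2-s9.

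Neighbouring *Runx2* sites ran different courses. Runx2-s4 fell from 12792 RPKM at W1 (11200 to 14600) over 10161 (W2) and 7430 (W6) to 5929 RPKM at W12 (4950 to 7040), a W6 to W1 ratio of 0.581 (0.474 to 0.711) that 97.5% of lasting sites matched or exceeded. Runx2-s7, 3 kb further from the start than Runx2-s6, went from 2535 RPKM at W1 (1840 to 3400) over 3820 (W2) to 5331 (W6, 4440 to 6340) and 4504 RPKM (W12), and its W6 to W1 ratio of 2.10 (1.48 to 3.03) was matched by 6.91% of lasting sites. The sites first seen at W2 or later, Runx2-s1 to Runx2-s3 and Runx2-s8 to Runx2-s10, reached 2645 to 5961 RPKM at W6.

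**Figure D3:**
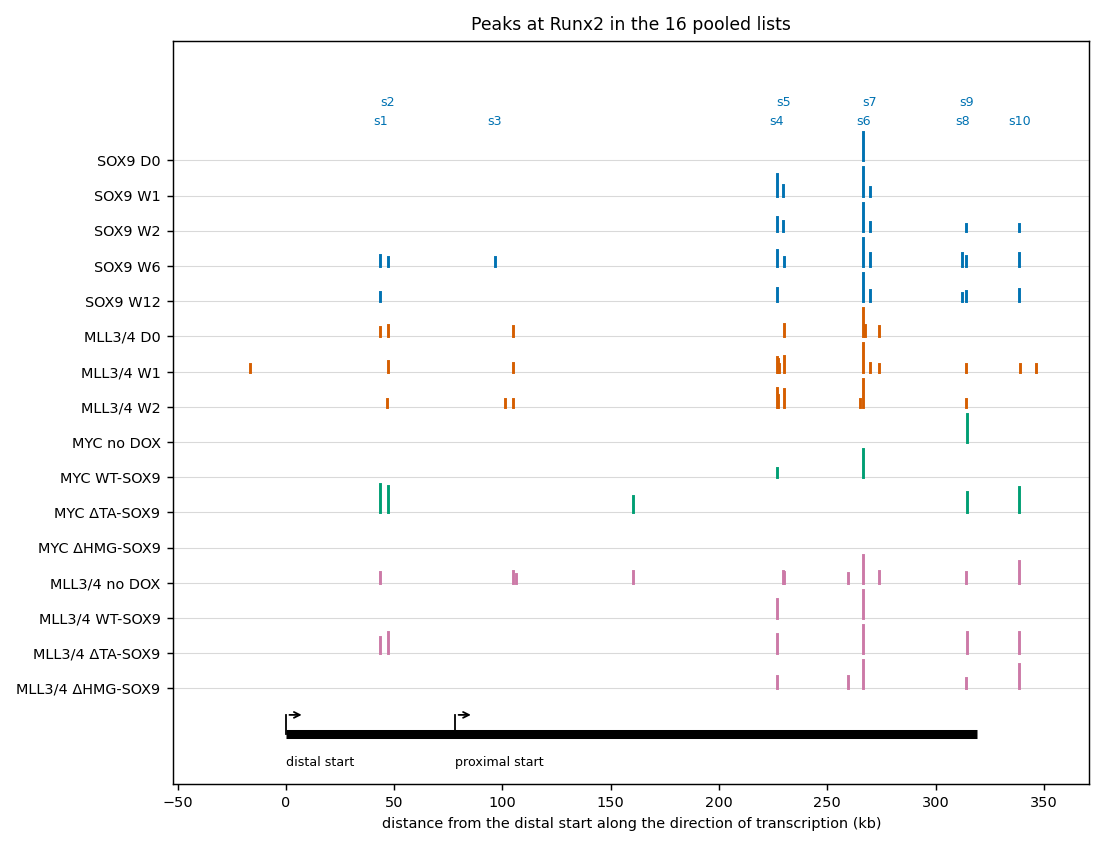
Peaks at *Runx2* in the 16 pooled lists (rows) by distance from the distal start in kb (horizontal axis), drawn as for *Runx1*, with SOX9 sites s1 to s10 above. Runx2-s6, 266.6 kb from the distal start, is the single SOX9 line at D0 and the highest line of each SOX9 row.

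Runx3-s2, 40.7 kb upstream of *Runx3* in intergenic sequence, had 3169, 3973, 4450 and 2574 RPKM from W1 to W12, and its W6 to W1 ratio was 1.40 (1.00 to 1.98). Cbfb-s2, in intron 3 of *Cbfb*, had 5820 RPKM at W1 (4740 to 7070), then 4813 (W2), 4282 (W6) and 5745 (W12, 4780 to 6840). Its W12 to W1 ratio was 0.987 (0.753 to 1.3).

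**Figure D4:**
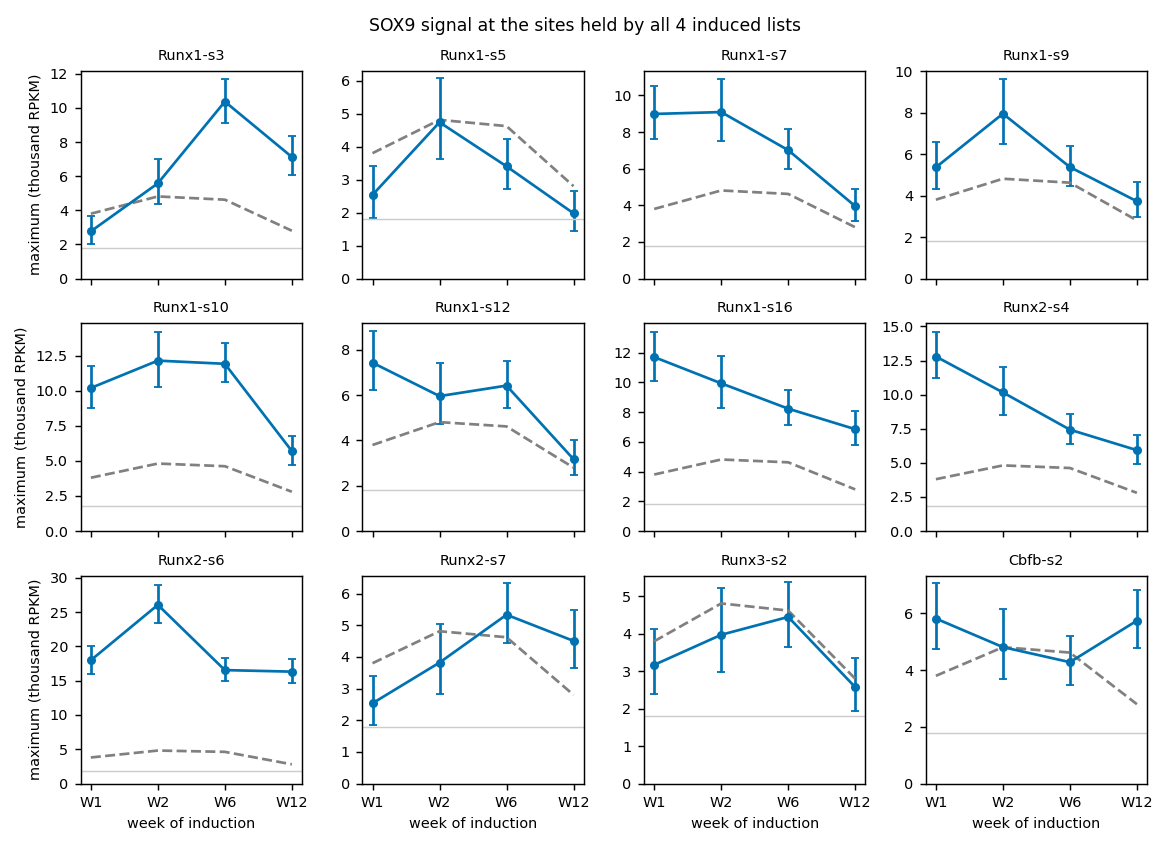
Maximum SOX9 signal in units of 1000 RPKM (vertical axis) at W1, W2, W6 and W12 for the 12 member sites present in all 4 induced lists, with 95% Poisson intervals as bars, the median of the 5110 such sites of the genome as a dashed line and the limit of 1800 RPKM as a light line. Runx1-s3, Runx2-s7 and Runx3-s2 are highest at W6, Runx1-s16 and Runx2-s4 are highest at W1, and the lowest value of Runx2-s6 is 16315 RPKM.

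MLL3/4 occupied few of the *Runx1* sites before SOX9 was induced. Of the 16 *Runx1* sites, 3 overlapped an MLL3/4 peak of D0, 9 of W1 and 10 of W2. At *Runx2* the counts were 4, 7 and 5 of 10, at *Runx3* 0, 2 and 1 of 4, and at *Cbfb* 2, 3 and 3 of 3. Over the 4 loci, 27.3% of sites lay on a D0 peak (15.1 to 44.2), against 53.7% of all sites (53.1 to 54.3), while at W1 the shares were 63.6% (46.6 to 77.8) and 59.8% and at W2 57.6% (40.8 to 72.8) and 60.1%. At 14 of the 33 sites (42.4%, 27.2 to 59.2) an MLL3/4 peak was absent at D0 and present at W1 or W2, against 20.7% of all sites. Among sites without a D0 peak, which alone could gain one, these were 14 of 24 (58.3%, 38.8 to 75.5) against 44.7%, a share within the interval of the members. At 10 sites (30.3%), 6 of them at *Runx1*, no MLL3/4 peak was listed at any of the 3 times, against 25.6% of all sites. The peaks of 1 locus lie near each other and are not independent, so these intervals are too narrow.

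**Figure D5:**
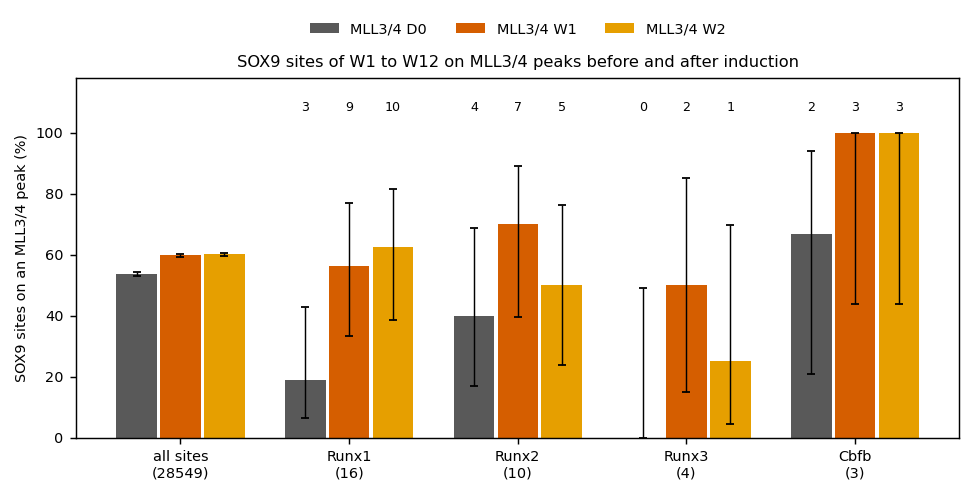
Share of SOX9 sites of W1 to W12 that overlap an MLL3/4 peak (vertical axis, percent) of D0, W1 or W2, for all 28549 sites and for each member, with 95% Wilson intervals as bars, the number of sites below each name and, for the members, the number on MLL3/4 above each bar. At D0 the share is 53.7% over all sites and 18.8% at *Runx1*, and at W2 it is 60.1% and 62.5%.

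Counted as MLL3/4 peaks, *Runx1* had 4 at D0, 13 at W1 and 17 at W2. Of the 13 at W1, 10 were gained, that is without an overlapping D0 peak, and of the 17 at W2, 14 were, while 1 of the 4 D0 peaks was lost at both times. SOX9 peaks of the same week lay on 7 of the 10 and 9 of the 14 gained peaks. The whole MLL3/4 list was longer at D0 than at W1 or W2. At W1, gained peaks lay on Runx1-s7 to Runx1-s10, Runx1-s12 and Runx1-s16, and at W2 also on Runx1-s3. The gained peak of highest total signal was on Runx1-s16 and ranked 2196 of 29281 at W2, and those of intron 6 had maximum coverage of 5 to 13, where the lowest in the lists is 5.

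*Runx2* had 7 MLL3/4 peaks at D0, 13 a week later and 9 at W2, of which 8 were gained at W1 and 5 at W2, 3 and 2 of them under SOX9. Its leading gained peak lay on Runx2-s4, at coverage 23 and rank 734 of 31539 at W1 and at coverage 31 and rank 862 of 29281 at W2. On and beside Runx2-s6, MLL3/4 had 2 peaks at D0, of ranks 738 and 5609 of 37072. At W1 and W2 it had 1 wider peak that overlapped both, of rank 38 of 31539 and 26 of 29281, so the total signals behind these ranks cover unlike widths. The kept peak on Runx2-s5 ranked 6976 of 37072 at D0, 322 of 31539 at W1 and 182 of 29281 at W2. *Runx3* had no MLL3/4 peak at D0, 2 at W1 and 1 at W2, the latter on Runx3-s2 at coverage 6. At *Cbfb* the counts were 5, 5 and 4, with 3 and 2 gained, and Cbfb-s2 was the gained site under SOX9, with coverage 10 at W1 and 14 at W2.

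Over the 4 loci, 23 of 33 MLL3/4 peaks at W1 (69.7%, 52.7 to 82.6) and 22 of 31 at W2 (71.0%, 53.4 to 83.9) were gained, against 39.7% and 35.7% of all MLL3/4 peaks. Lost were 5 of the 16 D0 peaks at either time (31.2%, 14.2 to 55.6), against 48.5% at W1 and 48.7% at W2. Of the gained peaks, 12 of 23 at W1 (52.2%, 33.0 to 70.8) and 13 of 22 at W2 (59.1%, 38.7 to 76.7) lay under SOX9 of the same week. Over all gained peaks the shares were 30.5% and 38.5%, and some member peaks lay on the same SOX9 site. At least 1 MLL3/4 peak was held by 3 of the 4 members at D0 and by 4 of 4 at W1 and W2, against 71.7%, 67.9% and 65.0% of protein-coding genes.

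In culture the MYC tag of WT-SOX9 gave 5 peaks at *Runx1*, 2 at *Runx2*, 0 at *Runx3* and 1 at *Cbfb*. All 8 lay on in vivo SOX9 sites, against 54.6% of the whole list (53.4 to 55.8), and none lay on a MYC-tag peak without DOX, where 5.8% of the whole list did. The leading peaks were on Runx2-s6, with 10342 RPKM (7950 to 13200, from 63 fragments) and rank 408 of 6671, on Runx1-s10, with 5910 RPKM (4140 to 8180), on Runx1-s3, with 4761 RPKM (3190 to 6840) and rank 214, and on Cbfb-s2, with 3283 RPKM (2010 to 5070) and rank 1098. The other 4, on Runx1-s6, Runx1-s12, Runx1-s13 and Runx2-s4, rested on 11 to 14 fragments, near the limit of the list. Without DOX there were 2 peaks, 1 each at *Runx1* and *Runx2*, of 9 or 10 fragments, and in the list of replicate 1 alone, which goes down to 791 RPKM, there were 0 and 2, and above 1800 RPKM 0 and 0.

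ΔTA-SOX9 gave 4 peaks at *Runx1*, 5 at *Runx2*, 0 at *Runx3* and 2 at *Cbfb*, and 8 of these 11 lay on in vivo sites, against 46.0% of its list. A WT-SOX9 peak overlapped 2 of the 11, on Runx1-s13 and Cbfb-s2, and 11.2% of all ΔTA-SOX9 peaks, and a peak without DOX overlapped 2 others, against 5.78% of its list. No ΔTA-SOX9 peak was listed on Runx1-s3, Runx1-s10 or Runx2-s6. On Cbfb-s2 the ΔTA-SOX9 maximum was 5948 RPKM (3980 to 8540), with an interval that overlaps that of WT-SOX9. ΔHMG-SOX9 had 0 peaks at the 4 loci, among 3980 in all. With at least 1 MYC-tag peak, the members were 2 of 4 without DOX, 3 of 4 with WT-SOX9, 3 of 4 with ΔTA-SOX9 and 0 of 4 with ΔHMG-SOX9, against 20.1%, 32.0%, 41.0% and 29.3% of protein-coding genes.

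Cultured MLL3/4 peaks without DOX were found at all 4 members. They numbered 10 at *Runx1*, 11 at *Runx2*, 5 at *Runx3* and 4 at *Cbfb*. Of the 33 SOX9 sites, 16 overlapped an MLL3/4 peak of this list (48.5%, 32.5 to 64.8), against 44.7% of all SOX9 sites, where the peak on Runx1-s16 lay outside the 50 kb window and is not among those counted at *Runx1*. Of the 24 sites with no MLL3/4 peak at D0 in vivo, 10 had one in culture without DOX (interval 24.5 to 61.2%), against 24.2% of all such sites, with coverage of 9 at Runx1-s16 to 49 at Cbfb-s2. With WT-SOX9 the counts were 4, 2, 2 and 2, in a list of 10543 peaks against 33975 without DOX. The descriptions of both samples behind that shorter list name replicate 2, while their titles name 1 and 2. Lost were 23 of the 30 peaks without DOX (76.7%, 59.1 to 88.2), against 82.0% of all. Gained were 3 of 10, against 41.8% of all, 1 on Runx1-s3 at coverage 5, 1 on Runx2-s4 at coverage 13 and 1 in *Cbfb* 38.8 kb from its start without a MYC-tag peak.

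With ΔTA-SOX9, MLL3/4 peaks numbered 9, 6, 1 and 6 at *Runx1*, *Runx2*, *Runx3* and *Cbfb*, and with ΔHMG-SOX9 9, 5, 2 and 2. Of the 30 peaks without DOX, 16 were lost with ΔTA-SOX9 and 14 with ΔHMG-SOX9, against 44.3% and 43.5% of all. Gained were 9 of 22 with ΔTA-SOX9 (40.9%, 23.3 to 61.3) and 3 of 18 with ΔHMG-SOX9 (16.7%, 5.84 to 39.2), against 26.1% and 16.7% of all. Of the 9, the 4 at *Cbfb* lay outside its gene body. A MYC-tag peak of the same form lay on 1 of the 9 and on 0 of the 3, against 1356 of all 6766 and 66 of all 3894 gained peaks. Runx2-s4, gained with WT-SOX9, also had an MLL3/4 peak with ΔTA-SOX9 (coverage 10) and with ΔHMG-SOX9 (coverage 13), whereas Runx1-s3 had one with WT-SOX9 alone. At least 1 cultured MLL3/4 peak was held by 4 of 4 members in each of the 4 groups, against 70.9% of genes without DOX, 42.4% with WT-SOX9, 65.9% with ΔTA-SOX9 and 64.3% with ΔHMG-SOX9.

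The letters at the 33 site centres were counted in windows of 101 bp on both strands. SOX words of 7 letters, that is CATTGT or CTTTGT with a C or a G before it, were found at 10 sites (30.3%, 17.4 to 47.3), 4 at *Runx1*, 2 at *Runx2*, 3 at *Runx3* and 1 at *Cbfb*, against 17.3% of all sites. The RUNX word AACCACA, which RUNX proteins bind, was found at 0 of the 33, which allows up to 10.4%, against 2.57% of all sites. The AP1 word TGACTCA, whose reverse complement is TGAGTCA, was found at 10 sites (30.3%, 17.4 to 47.3), 4 at *Runx1*, 4 at *Runx2*, 2 at *Runx3* and 0 at *Cbfb*, against 19.8% of all. By the first time, a split chosen after the values were seen, the AP1 word was found at 7 of the 10 sites first seen at W6 (70.0%, 39.7 to 89.2) and at 2 of the 20 first seen at W1 (interval 2.79 to 30.1), against 30.2% and 16.6% of all sites of those times. The 7 were Runx1-s2, Runx1-s11, Runx2-s2, Runx2-s3, Runx2-s8, Runx3-s1 and Runx3-s3.

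The 14 genes listed as partners and cofactors of RUNX proteins were *Tle1*, *Tle2*, *Tle3*, *Tle4*, *Runx1t1*, *Cbfa2t2*, *Cbfa2t3*, *Sin3a*, *Kat6a*, *Ep300*, *Crebbp*, *Hipk2*, *Prmt1* and *Yap1*. Of these, 0 had a SOX9 peak at D0 and 10, 12, 11 and 8 had at W1, W2, W6 and W12, with medians of 2, 3, 2.5 and 1 peaks against 1, 1, 1 and 0 over all genes. By number none reached *Runx1*, whose window of 324.7 kb is the longer, the most being 6 at W1 (*Tle4*, a Groucho corepressor, and *Prmt1*, an arginine methyltransferase) and 7 at W6 (*Tle1*, a Groucho corepressor). Per 100 kb the order turned for *Prmt1*, whose 5.42, 4.52 and 4.52 SOX9 peaks in the lists W1, W2 and W6 exceeded those of *Runx1*, while its 1.81 at W12 did not. *Runx1t1*, the ETO corepressor gene, and *Crebbp*, an acetyltransferase gene, had no SOX9 peak at any time. At D0, MLL3/4 had a median of 5 peaks at the 14 and up to 13 (*Tle3*, *Tle4* and *Hipk2*, a kinase), beside 4 at *Runx1* and a median of 2 over all genes. Per 100 kb *Runx1* lay below the median at D0, with 1.23 MLL3/4 peaks against 1.78. The share of SOX9 sites on D0 MLL3/4 peaks ranged from 0 of 1 at *Ep300* and 1 of 9 at *Tle1* to 6 of 6 at *Prmt1*, beside 3 of 16 at *Runx1* and 53.7% of all sites.

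By the sum of absolute differences of the 16 counts, over 21936 other genes (21924 for *Cbfb*), the gene most like *Runx1* was *Maml2*, at a sum of 26, with 0, 12, 12, 17 and 6 SOX9 peaks from D0 to W12 and 8, 15 and 15 MLL3/4 peaks, followed by *Itpkb* at 31 and *Irf2* at 32. For *Runx2* they were *Dnm3* (18), *Rhag* (19) and *Slc25a54* (20), for *Runx3* *Crnkl1* (6), *Tbx19* (7) and *Ergic2* (8), and for *Cbfb* *Med15* (6), *Cfap52* (8) and *Clca3b* (8). At the sum of 8 there were 5 genes each for *Runx3* and *Cbfb*, of which those named come first by the alphabet. Sums are small where counts are small, so they are comparable only for 1 member at a time.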

How the data were processed

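CNR reads of 32 of the 41 samples lay behind the 16 pooled lists. As the methods and the deposited files give it, the authors used Skewer for trimming, Bowtie2 2.2.9 for alignment to mm10, Picard for duplicates and SAMtools 1.3.1 to keep only fragments up to 120 bp, combined replicates, computed coverage with deepTools 3.1.2 and called peaks with SEACR (stringent, numeric threshold 0.01). The fragment limit favours transcription factor footprints. The deposited SOX9 and MYC-tag lists give RPKM at the peak maximum and were kept above 1800 by the authors. In the deposited pooled MLL3/4 lists the maxima are whole numbers and were read as an unscaled coverage signal, although the methods describe RPKM tracks. The deposited total signal of a peak, a score that sums the signal over its bases, gave the ranks.

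In the RPKM lists 100% of maxima were whole multiples of the value of 1 fragment, which gave the fragments behind each maximum, at least 24 in vivo and 8 in culture. Peaks overlapped when they shared at least 1 base. Genes were those of GENCODE vM21, and bases were read from the GRCm38.p6 genome (RefSeq), the patched mm10 assembly. Intervals were 95% Wilson for shares and exact Poisson or exact conditional binomial for maxima and their ratios. Python 3.11.15, pandas 2.3.3, numpy 2.4.6 and scipy 1.17.1 were used, and the counting was tested on simulated data. Named by rule were, per member, the lasting SOX9 site of best rank, the MLL3/4 gain and the WT-SOX9 peak of highest total signal, every peak within 1 kb of a start, the 14 partners and the 3 genes of nearest counts; the other sites were chosen after their values were seen. Members and lists were chosen with earlier results of these data known. Alternatives varied the window, limit, list length, merging, overlap and words. Bases were shown for 8 of the 33 sites, and those of Runx2-s6 are not reported here.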

Additional observations from a re-analysis of the deposited data

How the results depend on the processing

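Of 128 values recomputed under an alternative, 98 stayed within 1.5 times the reported count or within its interval and 30 did not. Above 3600 RPKM, SOX9 sites numbered 10 at *Runx1* and 1 at *Runx3*, sites first seen after W1 numbered 1 at *Runx3* (3 reported) and 1 at *Cbfb* (0 reported), and WT-SOX9 MYC-tag peaks numbered 2 at *Runx1*, 1 at *Runx2* and 0 at *Cbfb*. With the 50% of each list of highest total signal, gained MLL3/4 peaks numbered 9 at *Runx1* (W2), 5 at *Runx2* (W1), 0 at *Runx3* (W1) and 1 at *Cbfb* at W1 and at W2. With 100 kb to each side, WT-SOX9 peaks numbered 8 at *Runx1*, 1 at *Runx3* and 3 at *Cbfb*, cultured gained MLL3/4 peaks 4 at *Runx1* and SOX9 sites 5 at *Cbfb*. With 10 kb, gained MLL3/4 peaks numbered 5 at *Runx2* (W1) and 0 at *Runx3* (W1 and W2), and *Runx3* had 0 SOX9 sites, as it had with the gene body alone. With lists of equal length, WT-SOX9 peaks numbered 2 at *Runx1* and 1 at *Runx2*, cultured gained MLL3/4 peaks 2 at *Runx1* and SOX9 sites 2 at *Runx3*. Why each of these counts moved was not tested. Without replicate 2, in the list of replicate 1 alone, which also holds peaks under the pooled list's limit of 1800 RPKM, MYC-tag peaks without DOX numbered 0 at *Runx1* and 2 at *Runx2*. Above 1800 RPKM in that list they numbered 0 at both, and the cause was not tested.

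The shares of sites on D0 MLL3/4 peaks and with SOX or RUNX words stayed within their intervals under each alternative run for them. The gene body alone, the limit on the list of replicate 1, the 6-letter SOX words (45.5% of sites) and the 1 kb distance for gained peaks were chosen after seeing the data. No paired analysis was possible because each group had 1 pooled list. The spread between samples is unknown, as is the depth behind pooled MLL3/4 coverage, and the MYC-tag lists leave peaks of 8 to 11 fragments at their lower limit.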
